A study of Mus musculus with 14 samples.

Results

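The EGF receptor family and its ligands were followed through 4 populations of mouse prostate cells. The family was taken as 10 genes, 4 receptors (*Egfr*, *Erbb2*, *Erbb3* and *Erbb4*) and 6 ligands (*Egf*, *Areg*, *Ereg*, *Hbegf*, *Tgfa* and *Btc*), and the probe sets of each gene were found in the annotation of the array. Of the 10 genes, 9 had a named probe set, with 20 probe sets in all, and *Areg* was not analysed here. A probe set was tested where its signal exceeded 20 on at least 1 of 14 arrays, which 19 of the 20 probe sets and 8 of the 10 genes did, among 41031 probe sets and 17149 genes tested in the series. Where a gene had several probe sets, the one with the highest mean stood for the gene.

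The populations were the epithelium of the urogenital sinus of C57BL/6 embryos at day 16 (UGE, 3 arrays), which forms the prostate, and cells of normal prostates of untreated adult C57BL males, labelled as 6 to 8 weeks old, sorted by the surface antigen Sca-1. Sca-1Hi cells (3 arrays) carried the most Sca-1 and are described by the study as enriched in stem cells, Sca-1Lo cells (4 arrays) carried medium to low amounts and are described as enriched in transit-amplifying cells, and Sca-1Neg cells (4 arrays) carried none and are described as the most differentiated. The adult cells came from the part of the ducts nearest the urethra. The sort used Sca-1 alone, so each population could hold other cells of the gland, and the UGE was not sorted. The labels number the replicates without saying whether they came from separate animals, so the p-values below measure the spread between arrays, which may be technical.

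As background, EGF-type ligands are made as precursors in the cell membrane and are released from it by metalloproteases. They bind EGFR or ERBB4, which then pair with another receptor of the family and phosphorylate it. ERBB2 has no known ligand of its own and serves as a partner, and ERBB3 binds neuregulins and has little kinase activity. Signals from the pairs run through the RAS and ERK cascade and through PI3 kinase and AKT, and they are turned down by feedback proteins. In the prostate the pathway is known for growth of the epithelium, and EGF itself is known as a secreted product of the adult gland.

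To show the DNA in front of members that differed between UGE and Sca-1Neg cells, the 250 bases before a transcription start listed in the RefSeq promoter table are given for *Erbb2* and *Btc*, which were higher in UGE, and for *Egf*, which was lower. For *Tgfa* the listed start lies inside the gene as annotated, with 184 of the 250 bases within the gene, so no promoter is shown. They are RefSeq sequences of the mouse assembly GRCm38.p6, written 5′ to 3′ on the strand of the gene, and capitals mark matches to the CCAAT box (CCAAT) on either strand.
*Erbb2* (chr11:98412234-98412483, plus strand): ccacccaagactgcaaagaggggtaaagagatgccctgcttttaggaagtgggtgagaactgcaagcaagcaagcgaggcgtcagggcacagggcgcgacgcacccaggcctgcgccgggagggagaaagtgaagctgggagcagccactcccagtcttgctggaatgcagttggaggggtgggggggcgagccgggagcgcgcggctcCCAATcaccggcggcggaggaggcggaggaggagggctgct
*Btc* (chr5:91402995-91403244, minus strand): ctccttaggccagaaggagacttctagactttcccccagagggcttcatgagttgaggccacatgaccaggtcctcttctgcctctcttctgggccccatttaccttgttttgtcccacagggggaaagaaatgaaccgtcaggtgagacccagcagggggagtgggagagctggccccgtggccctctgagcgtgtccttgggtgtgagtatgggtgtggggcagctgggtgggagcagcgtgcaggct
*Egf* (chr3:129755323-129755572, minus strand): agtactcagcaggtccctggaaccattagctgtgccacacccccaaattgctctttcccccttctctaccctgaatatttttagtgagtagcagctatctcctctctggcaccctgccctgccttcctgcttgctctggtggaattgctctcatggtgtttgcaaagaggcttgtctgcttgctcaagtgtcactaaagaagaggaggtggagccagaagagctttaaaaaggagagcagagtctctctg
The promoter of *Erbb2* held 1 CCAAT box and those of *Btc* and *Egf* none, and 33.8% of the 32851 mouse promoters of the same length held one. The GC box (GGGCGG) and the AP-2 motif (GCCNNNGGC), which can overlap, were in none of the 3, and 32.7% and 13.7% of all promoters held them. The TATA box (TATAAA) was in none of the 3 promoters and in 12.4% of all. The AP-1 motif (TGANTCA), searched because several FOS and JUN genes are described below, was in none of the 3 and in 6.75% of all. Their GC content was 66.0% for *Erbb2*, 59.6% for *Btc* and 50.4% for *Egf*, against a median of 52.4% over all promoters. Of the 10 genes, 7 had an entry in this promoter table, and *Erbb3*, *Ereg* and *Hbegf* had none. In the gene annotation *Epgn*, *Ereg*, *Areg* and *Btc* follow one another on chromosome 5 with no other protein-coding gene between them. Each match describes letters in this window and shows no bound factor.

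The signal of *Ly6a*, which codes for Sca-1, ran from 9358 to 10878 in Sca-1Hi, from 3130 to 8505 in Sca-1Lo, from 342 to 856 in Sca-1Neg and from 150.2 to 262 in UGE, in the order of the sort. Markers of other cells differed as well. Summed over 16 leukocyte genes, the signal was 7827 to 55700 in Sca-1Neg, 2805 to 10942 in Sca-1Lo, 1336 to 3130 in Sca-1Hi and 2124 to 3033 in UGE. Summed over 10 endothelial genes, it was 10158 to 19468 in Sca-1Hi, 5871 to 13810 in Sca-1Lo, 1463 to 5764 in Sca-1Neg and 309 to 874 in UGE. Over 7 genes of any epithelium, it was 30715 to 43184 in UGE, 22750 to 29195 in Sca-1Hi, 17528 to 28345 in Sca-1Lo and 7983 to 32511 in Sca-1Neg. Sca-1Neg replicate 3 was apart from the other Sca-1Neg arrays, with the highest epithelial sum (32511 against 7983 to 13067) and the lowest leukocyte sum (7827 against 15458 to 55700). The 3′ probe set of the *Gapdh* control exceeded the 5′ probe set by 3.07 to 3.48 on the log2 scale on the Sca-1Hi arrays and by 1.66 to 3.22 on the others. With the *Actb* control the values were 1.59 to 2.77 on the Sca-1Hi arrays and 1.17 to 2.27 on the others, which overlapped more.

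A probe set was called higher or lower where limma's Benjamini-Hochberg adjusted p, taken over all probe sets tested, was under 0.05 and the difference exceeded the fold minimum of the study's methods, which is 0.81 on the log2 scale. The comparison of UGE with Sca-1Neg cells held the most calls in this family. Of the 8 members tested, 4 were higher in UGE (*Erbb2*, *Erbb3*, *Tgfa* and *Btc*), 2 were lower (*Egf* and *Hbegf*), and *Egfr* and *Ereg* did not pass. Over all probe sets 14.9% were called higher and 10.9% lower in this comparison. Over the 17149 genes, each by the probe set that stands for it, the shares were 16.3% and 12.9%. The median difference of the 8 members, each by the probe set that stands for it, was 1.41 on the log2 scale, against 0.07 over all genes. The balance depended on that choice. With the mean of a gene's probe sets 1 member was called higher and 2 lower.

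**Figure D1:**
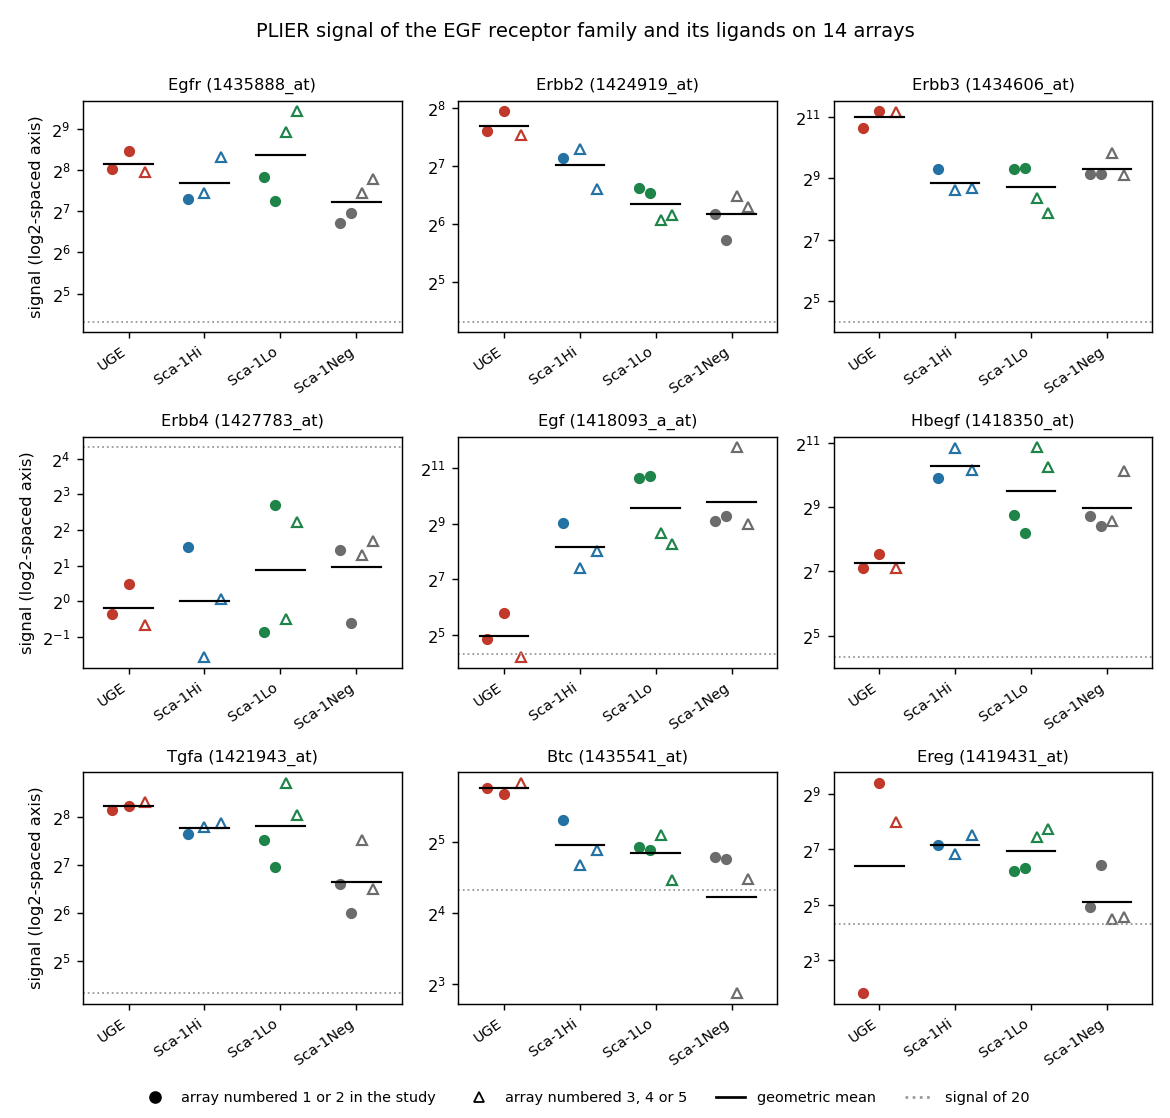
PLIER signal (arbitrary units, log2-spaced axis with a range of its own in each panel) of the probe set that stands for each of 9 members, by population; each point is 1 array, its shape gives the array number in the study (1 and 2, or 3 to 5), the bar is the geometric mean and the dotted line a signal of 20. *Erbb3* and *Erbb2* were highest in UGE, *Egf* and *Hbegf* lowest in UGE, and *Erbb4* lay below 20 on every array.

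*Erbb3*, the receptor of neuregulins, was the receptor with the largest differences. The signals of probe set 1434606_at were 1592, 2335 and 2279 in UGE, 628, 391 and 412 in Sca-1Hi, 635, 652, 329 and 233 in Sca-1Lo, and 562, 566, 913 and 549 in Sca-1Neg. Every UGE array was above every adult array, and the adult populations overlapped. *Erbb3* was higher in UGE than in Sca-1Neg by 1.69 ± 0.37 (log2 difference ± SE, adjusted p = 0.00415), than in Sca-1Hi by 2.13 ± 0.39 (adjusted p = 0.00146) and than in Sca-1Lo by 2.27 ± 0.37 (adjusted p = 5.91e-04). The genes of any epithelium moved with the first of these differences, since 4 of the 7 were called higher in UGE than in Sca-1Neg. Against Sca-1Hi and against Sca-1Lo, 0 of the 7 were called. The median difference of the 7 was 1.34, 0.49 and 0.64 in UGE from Sca-1Neg, Sca-1Hi and Sca-1Lo, and their part in the differences of *Erbb3* was not tested. In bulk samples fewer cells of a type and less RNA in each cell cannot be told apart.

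The other probe set of *Erbb3*, 1452482_at, had signals of 7.03 to 9.04 in UGE and of 12.7 to 42.4 in the adult populations, and it was called lower in UGE against each of them. It lay near the limit of 20, and with all signals set to at least 20 the difference was at least 1.22-fold lower in UGE than in Sca-1Neg. The call of *Erbb3* thus held for the bright probe set, and it was lost where the mean of both was taken (log2 difference from Sca-1Neg 0.14, adjusted p = 0.680).

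*Erbb2*, the partner receptor, had signals of 194, 245 and 185 in UGE, 141, 155 and 97.4 in Sca-1Hi, 98.4, 92.3, 67.0 and 71.0 in Sca-1Lo, and 71.7, 53.1, 89.4 and 78.6 in Sca-1Neg. The UGE arrays were above all adult arrays, and all 3 Sca-1Hi arrays were above all Sca-1Neg arrays. It was higher in UGE than in Sca-1Neg by 1.52 ± 0.26 (adjusted p = 8.59e-04) and than in Sca-1Lo by 1.35 ± 0.26 (adjusted p = 0.00227). Against Sca-1Hi the difference was 0.68 ± 0.28 (95% interval 0.08 to 1.28, adjusted p = 0.0912), which did not pass. The order of means fell from UGE through Sca-1Hi and Sca-1Lo to Sca-1Neg, and no pair of neighbours in it was called.

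*Egfr*, the receptor of the EGF-type ligands, could not be given 1 pattern. Its probe set of highest mean, 1435888_at, had signals of 261, 353 and 248 in UGE, 156, 173 and 320.1 in Sca-1Hi, 226, 153, 486 and 686 in Sca-1Lo, and 106, 124, 175 and 219 in Sca-1Neg. All UGE arrays were above all Sca-1Neg arrays, yet the difference of 0.92 ± 0.47 (95% interval -0.08 to 1.93, adjusted p = 0.161) was not called. The Sca-1Lo arrays overlapped all other populations, and their difference from Sca-1Neg was 1.13 ± 0.43 (adjusted p = 0.242).

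The 6 other probe sets of *Egfr* moved otherwise. The next brightest, 1424932_at, had signals of 134, 214 and 126 in UGE and of 81.9, 92.8, 233 and 210.2 in Sca-1Neg, and these overlapped. Probe set 1460420_a_at ran from 105 to 135 in UGE, below all adult arrays (143 to 224), and was called lower in UGE than in Sca-1Lo (log2 difference -0.83 ± 0.20, adjusted p = 0.00911). Probe set 1432647_at was lower in UGE (49.7 to 76.0) than in Sca-1Hi (119 to 146), with a difference of -1.07 (adjusted p = 0.00538), and lower than in Sca-1Lo (-0.85, adjusted p = 0.0160), and 1451530_at was called lower in the same 2 comparisons. The remaining pair, 1454313_at and 1457563_at, was called in no comparison. The mean over the probe sets of *Egfr* gave a difference of UGE from Sca-1Neg of -0.29, of the opposite sign to 1435888_at. The annotation used here does not say which transcripts each probe set detects.

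**Figure D2:**
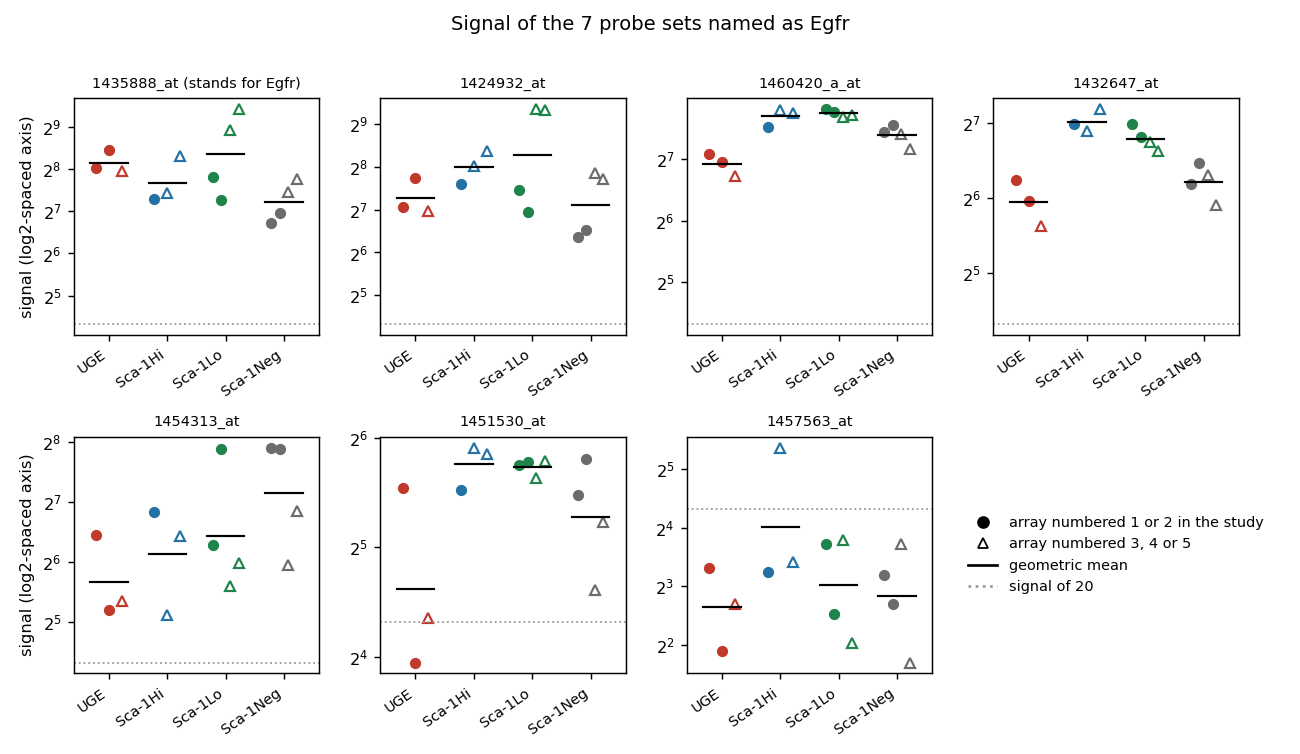
Signal (log2-spaced axis with a range of its own in each panel) of the 7 probe sets named as *Egfr*, by population; points are arrays, bars geometric means and the dotted line a signal of 20. UGE lay above Sca-1Neg with 1435888_at, overlapped it with 1424932_at and lay below the 3 adult populations with 1460420_a_at.

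*Erbb4*, the fourth receptor, had 1 probe set, 1427783_at, with signals of 0.334 to 6.52 over the 14 arrays. No array reached 20 and the gene was not tested, so it was not detectable with this probe set in any of the populations.

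*Egf* had the largest difference of the members tested. The signals of 1418093_a_at were 29.0, 56.0 and 18.3 in UGE, 518, 170.5 and 261 in Sca-1Hi, 1592, 1664, 411 and 310.1 in Sca-1Lo, and 545, 616, 3452 and 511 in Sca-1Neg. Every UGE array was below every adult array, 1 of the 3 was below 20, and the adult populations overlapped. *Egf* was lower in UGE than in Sca-1Neg (log2 difference -4.82 ± 0.76, adjusted p = 4.26e-04), than in Sca-1Lo (-4.62 ± 0.76, adjusted p = 6.39e-04) and than in Sca-1Hi (-3.20 ± 0.81, adjusted p = 0.0103). The call against Sca-1Hi was lost without UGE replicate 3 (-2.82, adjusted p = 0.0502).

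Secreted products of the adult gland moved with *Egf*. Of 7 luminal secretory genes tested, 4 were called lower in UGE against each adult population, and *Pbsn* (probasin), at 3.46 to 13.5 in UGE and 8701 to 16869 in the adult populations, was 1 of them. The keratin gene *Krt18*, in the same list, had 5546 to 8012 in UGE and 1804 to 10301 in the adult populations, and *Krt8*, also in the list, was called higher in UGE (8172 to 11140) than in Sca-1Neg (2239 to 7239). The sum of the list was 14539 to 21133 in UGE and 32962 to 80462 in the adult populations, and its highest value was on Sca-1Neg replicate 3, which also had the highest *Egf*. The part of these cells in the difference of *Egf* was not tested.

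*Hbegf*, the heparin-binding ligand, had signals of 139, 185 and 137 in UGE, 945, 1823 and 1132 in Sca-1Hi, 429.6, 290.2, 1857 and 1218 in Sca-1Lo, and 425, 343, 377 and 1102 in Sca-1Neg with 1418350_at. All UGE arrays were below all adult arrays, and 2 of the 3 Sca-1Hi arrays were above all Sca-1Neg arrays. The adult cells were digested from tissue and sorted and the UGE was not sorted. Handling and population therefore cannot be told apart for the differences of UGE in *Hbegf*. The difference of UGE was -3.04 ± 0.62 from Sca-1Hi (adjusted p = 0.00279), -2.26 ± 0.58 from Sca-1Lo (adjusted p = 0.0122) and -1.71 ± 0.58 from Sca-1Neg (adjusted p = 0.0425). The second probe set, 1418349_at, was called lower in UGE in the same 3 comparisons, with differences of -1.50, -1.21 and -1.12. The call against Sca-1Neg was lost without any 1 of the UGE arrays (adjusted p = 0.0943, 0.0799 and 0.121 without replicates 1, 2 and 3), Sca-1Hi replicate 3 (0.0552), Sca-1Neg replicate 1 (0.0671) or Sca-1Neg replicate 4 (0.0992), and that against Sca-1Lo without UGE replicate 3 (0.0503). Taking the labels' replicate number as a block gave -1.39 for UGE against Sca-1Neg (adjusted p = 0.0669). Over its 30 alternatives that adjusted p ran from 0.00119 to 0.415.

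*Tgfa*, a ligand of EGFR made by epithelial cells, had signals of 283, 302 and 319 in UGE, 201, 223 and 236 in Sca-1Hi, 184, 124, 421 and 264 in Sca-1Lo, and 97.4, 64.1, 185 and 90.3 in Sca-1Neg with 1421943_at. All UGE and all Sca-1Hi arrays were above all Sca-1Neg arrays, and Sca-1Lo overlapped every other population. *Tgfa* was higher in UGE than in Sca-1Neg by 1.57 ± 0.40 (adjusted p = 0.00981). The other probe sets, 1450421_at and 1421942_s_at, gave -0.13 and 0.33 and were not called, with signals of 68.6 to 149 and 13.0 to 53.4. The mean over the 3 probe sets gave 0.59, under the fold required, and the call was also lost with the methods' t-test (adjusted p = 0.0609). Markers of basal epithelial cells moved with the higher signals of UGE, since 4 of 7 were called higher than in Sca-1Neg and their sum was 22058 to 29045 in UGE and 1814 to 8611 in Sca-1Neg. Their part in the differences of *Tgfa*, *Erbb2* and *Btc* was not tested.

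*Btc* (betacellulin), which binds EGFR and ERBB4, was dim in all populations. The signals of 1435541_at were 54.4, 51.5 and 57.1 in UGE, 39.7, 25.7 and 29.6 in Sca-1Hi, 30.6, 29.7, 34.4 and 22.2 in Sca-1Lo, and 27.7, 27.1, 7.33 and 22.3 in Sca-1Neg. The UGE arrays were above all adult arrays. *Btc* was higher in UGE than in Sca-1Neg by 1.54 ± 0.40 (adjusted p = 0.0110), and the differences from Sca-1Hi (0.80, adjusted p = 0.182) and Sca-1Lo (0.91, adjusted p = 0.115) did not pass. Without Sca-1Neg replicate 3, the lowest array, the difference from Sca-1Lo stayed at 0.91 with a smaller shared spread and was called (adjusted p = 0.0110). The second probe set, 1421161_at, ran from 8.55 to 32.2 and was called in no comparison. The call of *Btc* was lost with the methods' t-test (adjusted p = 0.133) and with the mean of both probe sets (0.99, adjusted p = 0.0517).

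*Ereg* (epiregulin) was the least settled ligand. Its signals were 3.51, 675 and 257 in UGE, 144, 115 and 184 in Sca-1Hi, 74.0, 80.8, 175 and 216 in Sca-1Lo, and 30.4, 87.3, 22.4 and 23.5 in Sca-1Neg. The UGE arrays held both the lowest and the highest signal of all 14, and the Sca-1Hi arrays were all above the Sca-1Neg arrays. The difference from Sca-1Neg was 1.30 ± 1.27 in UGE (95% interval -1.43 to 4.03, adjusted p = 0.479) and 2.07 ± 1.27 in Sca-1Hi (-0.66 to 4.80, adjusted p = 0.306). Without UGE replicate 1 the difference of UGE was 3.60 and was called (adjusted p = 0.00117), and without UGE replicate 2 it was -0.19. Without UGE replicate 1 the unchanged difference of Sca-1Hi was also called (adjusted p = 0.0260), the shared spread being smaller.

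**Figure D3:**
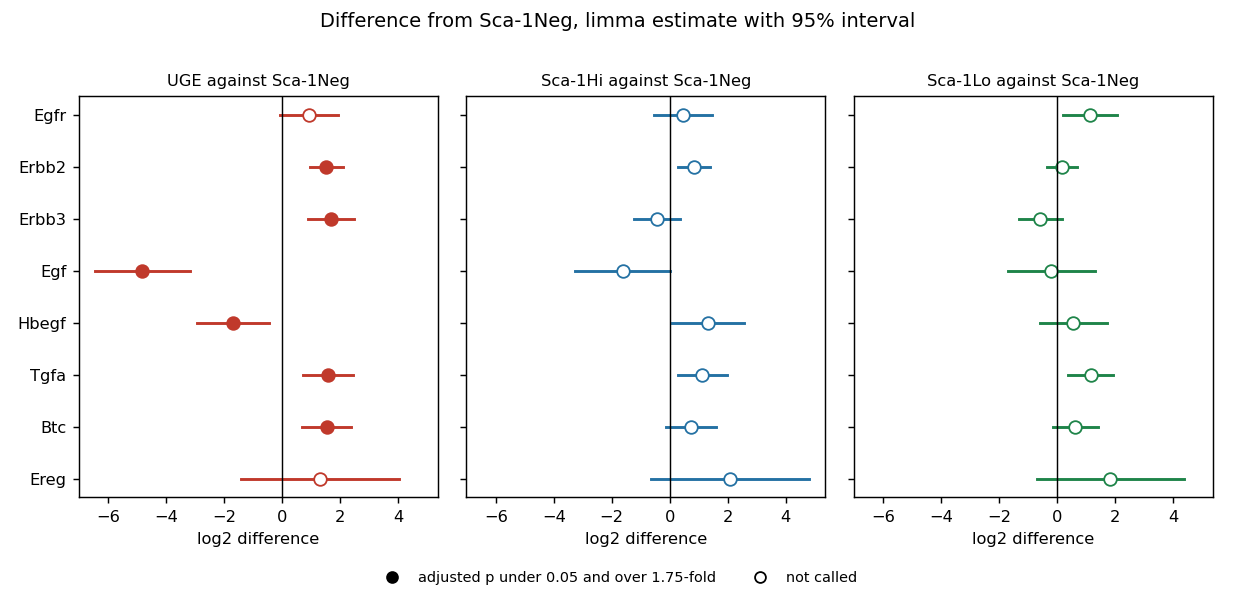
Log2 difference from Sca-1Neg (horizontal axis) of the 8 members tested in UGE, Sca-1Hi and Sca-1Lo; points are limma estimates, bars 95% intervals, and filled points passed the adjusted p and the fold. In UGE 4 members lay to the right and 2 to the left as called; in Sca-1Hi and Sca-1Lo no point is filled.

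The other comparisons of UGE held fewer calls. Against Sca-1Hi, 1 of the 8 members was called higher (*Erbb3*) and 2 lower (*Egf* and *Hbegf*), where 13.3% of all probe sets were called higher and 12.1% lower. Against Sca-1Lo, 2 were called higher (*Erbb2* and *Erbb3*) and 2 lower (*Egf* and *Hbegf*), where 11.4% of all were called higher and 10.5% lower. Over all genes the shares were 15.8% higher and 12.0% lower against Sca-1Hi, and 13.4% and 12.2% against Sca-1Lo. The count called higher against Sca-1Hi (1 of 8) is near the share over all probe sets and is no result about the members. These comparisons share the UGE arrays and are not independent.

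In the order of mean log2 signal UGE came first for *Erbb2*, *Erbb3*, *Tgfa* and *Btc* and last for *Egf* and *Hbegf*. Sca-1Neg came last for *Egfr*, *Erbb2*, *Ereg*, *Tgfa* and *Btc* and first for *Egf*. Among the adult populations, however, no member was called. Between Sca-1Hi and Sca-1Neg, 0 of 8 were called by limma and 0 by the methods' t-test, with 7.65% of all probe sets called higher and 4.28% lower by limma. Run over all 41031 probe sets, the t-test called 286 higher and 22 lower, so 0 members by it says little. At an unadjusted p under 0.05 limma gave 3 members (*Erbb2*, *Tgfa* and *Hbegf*) and the t-test 4. Among the probe sets that stand for a gene, *Erbb2* had the lowest adjusted p, with a difference of 0.84 ± 0.26 (95% interval 0.28 to 1.40, adjusted p = 0.0527). *Tgfa* followed with 1.12 ± 0.40 (0.27 to 1.97, adjusted p = 0.0810). Without Sca-1Neg replicate 3 both were called, at 0.94 (adjusted p = 0.0341) and 1.41 (adjusted p = 0.0229). Both were also called with the study's array numbers (1 and 2, or 3 to 5) as a block, at 0.86 (adjusted p = 0.0404) and 1.02 (adjusted p = 0.0493). *Hbegf* differed by 1.33 (0.09 to 2.58, adjusted p = 0.148) and *Egf* by -1.62 (-3.25 to 0.00, adjusted p = 0.176). Another probe set of *Egfr*, 1432647_at, differed by 0.80 ± 0.23 (adjusted p = 0.0356), just under the fold minimum. With it all 3 Sca-1Hi arrays were above all Sca-1Neg arrays. All 4 Sca-1Lo arrays were also above all Sca-1Neg arrays with 1432647_at and 1460420_a_at, which were not called (adjusted p = 0.215 and 0.439).

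Between Sca-1Lo and Sca-1Neg, 0 of 8 were called by limma and 0 by the t-test, with 1.24% of all probe sets called higher and 0.663% lower by limma. The t-test called 2 higher and 0 lower of all 41031 probe sets, so it could hardly call a member here. At an unadjusted p under 0.05 limma gave 2 members (*Tgfa* and *Egfr*) and the t-test 1 (*Ereg*). *Tgfa* differed by 1.15 ± 0.37 (0.36 to 1.94, adjusted p = 0.145) and was called without Sca-1Neg replicate 3 (1.44, adjusted p = 0.0279). Between Sca-1Hi and Sca-1Lo, 0 were called by either test, and each gave 1 member (*Erbb2*) at an unadjusted p under 0.05. Of all probe sets limma called 0.0439% higher and 0.0219% lower. The t-test called 0 in either direction, so 0 members by it says nothing about them. The intervals of this last comparison reached 1.23 for *Erbb2* and 2.02 for *Hbegf*, which exceeds 2-fold in each case. Basal epithelial genes were higher in both Sca-1 populations, with 7 of 7 called in Sca-1Hi and 4 of 7 in Sca-1Lo, and endothelial genes with 9 of 10 and 7 of 10, and their part in the values of *Tgfa*, *Erbb2* and *Hbegf* was not tested.

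The adult arrays fell into 2 sets by their array numbers in the study. Sca-1Lo and Sca-1Neg replicates 1 and 2 and Sca-1Hi replicate 1 carried the numbers 1 and 2, and the others 3 to 5, and what the numbers stand for is not stated. The deviations of arrays from their population means correlated at a median of 0.37 between adult arrays of the same set, and at -0.33 between the sets. UGE replicates 1 and 2 carried the numbers 1 and 2 as well. With the adult arrays so numbered, UGE replicate 1 correlated at 0.09 to 0.45 and UGE replicate 2 at -0.45 to -0.06. The block by array number took in the UGE arrays, though UGE replicate 2 did not follow the adult set of its number. Of the members, *Egfr* and *Hbegf* were low on Sca-1Lo arrays numbered 1 and 2 (153 to 226 and 290.2 to 429.6) and high on those numbered 4 and 5 (486 to 686 and 1218 to 1857). *Egf* and *Erbb3* had the reverse, with 1592 to 1664 and 635 to 652 on the first pair of Sca-1Lo arrays and 310.1 to 411 and 233 to 329 on the second pair. Basal epithelial genes summed to 9331 to 15795 on the first pair and 28665 to 29249 on the second, and luminal secretory genes to 63099 to 71514 and 47922 to 47966. Leukocyte genes summed to 7310 to 10942 on the first pair and 2805 to 2812 on the second, endothelial genes to 5871 to 6047 and 11436 to 13810, and genes of fibroblasts and smooth muscle to 21348 to 35443.5 and 55777.5 to 77583. Within the leukocyte sum *Cd52* alone had 5082 to 8162 on the first pair and 1250 to 1384 on the second. *Csf1r* fell as well (476 to 523 and 245 to 258), while *Ptprc* overlapped (87.7 to 168 and 131 to 135). The part of these cells in the members' values was not tested.

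Over all arrays the difference of *Egf* between Sca-1Lo and Sca-1Neg was -0.20 (95% interval -1.71 to 1.30), and without Sca-1Neg replicate 3 it was 0.46. It was 1.49 (95% interval 0.39 to 2.59) within the arrays numbered 1 and 2, and -1.90 (-3.82 to 0.03) within those numbered 3 to 5. That of *Erbb3* was 0.19 and -1.35, and that of *Hbegf* -0.11 and 1.22. With 2 arrays of each population in a set, none of these was called within either set. All 6 calls of UGE against Sca-1Neg were made with each set of adult arrays. All 3 UGE arrays entered both of these runs, so the 2 runs are not independent. In the set numbered 1 and 2 *Egfr* was called as well (1.31, adjusted p = 0.0102), whereas in the other its difference was 0.54. *Tgfa* was called higher in UGE than in Sca-1Lo within the first set (adjusted p = 0.0370), and the difference was -0.15 within the second. Whether a difference itself differed between the sets was not tested.

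**Figure D4:**
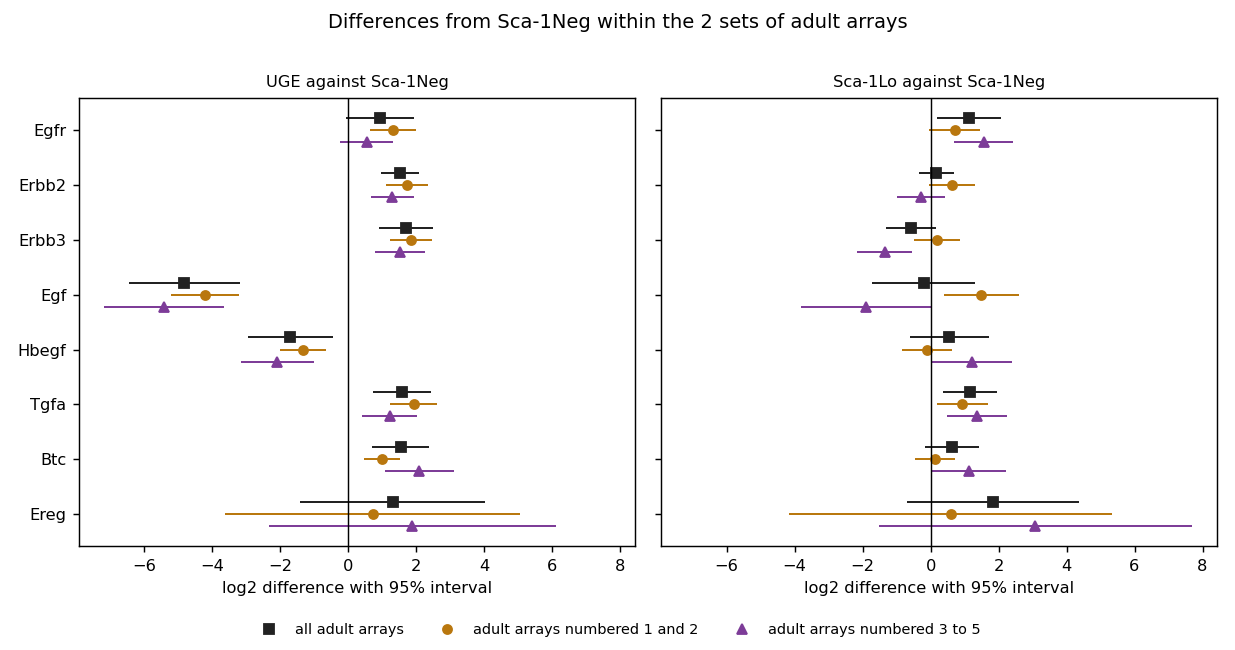
Log2 difference from Sca-1Neg with its 95% interval for the 8 members, in UGE (left) and Sca-1Lo (right), over all adult arrays, over adult arrays numbered 1 and 2 and over those numbered 3 to 5. The UGE estimates kept their sign in both sets, and in Sca-1Lo the estimates for *Egf*, *Erbb2*, *Erbb3* and *Hbegf* changed sign between the sets.

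Over the 14 arrays some pairs of members varied together and others in opposite directions. Of all pairs of tested members, the Pearson correlations of log2 signal largest in size were picked. They were -0.87 between *Erbb3* and *Hbegf*, -0.75 between *Egf* and *Btc*, 0.73 between *Erbb2* and *Erbb3* and 0.72 between *Egfr* and *Tgfa*. Other pairs were weak, such as *Hbegf* with *Tgfa* (0.05) and *Egfr* with *Erbb2* (0.10). These are descriptions over arrays that share their populations and their cell makeup. The genes most like *Erbb3* over the arrays were *Spc24* (r = 0.98), *Pbk* and *Riox1*, and *Spc24* and *Pbk* are known for roles in mitosis. Those most like *Egf* were *Gnmt* (r = 0.99), *Slc46a3* and *Abo*, and those most like *Hbegf* were *Relb* (r = 0.98), *Ccdc82* and *Klf4*. For *Tgfa* they were *Tfap2a* (r = 0.97), *Slc7a6* and *Trp63* (r = 0.95), the last a marker of basal cells. For *Erbb2* they were *Evpl* (r = 0.94), *Reep6* and *Crybg2*, and for *Btc* *Tmem178* (r = 0.93), *Tnfaip2* and *Rnf144a*. Each was picked from 17148 other genes.

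Other genes of the pathway were taken from 5 lists with 70 genes, of which 65 were tested. In UGE against Sca-1Neg 9 were called higher (13.8%, against 14.9% of all probe sets) and 12 lower (18.5%, against 10.9%). Against Sca-1Hi 10 were called higher (15.4%, against 13.3%) and 10 lower (15.4%, against 12.1%). Apart from the count called lower than in Sca-1Neg, these shares are near those of all probe sets and are no result about the lists. Of the 12 called lower than in Sca-1Neg, 5 came from the 10 ERK-induced genes described below, and 12.9% of all genes were called lower. In UGE against Sca-1Lo 9 were called higher (13.8%, against 11.4%) and 12 lower (18.5%, against 10.5%). In Sca-1Hi against Sca-1Neg 3 were called higher (4.62%, against 7.65%) and 2 lower (3.08%, against 4.28%). In Sca-1Lo against Sca-1Neg none was called in either direction, where 1.24% of all probe sets were called higher and 0.663% lower. Between Sca-1Hi and Sca-1Lo none was called (0.0439% and 0.0219% of all). Apart from the count lower in UGE than in Sca-1Lo, these too are no result about the lists. Of the 12 lower in UGE than in Sca-1Lo, 6 came from the ERK-induced genes, and 12.2% of all genes were called lower.

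Genes that ERK signalling is known to induce had the most one-sided counts. Of 10 tested, 5 were lower and 1 higher in UGE than in Sca-1Neg. Against Sca-1Hi 7 were lower and 0 higher, and against Sca-1Lo 6 were lower and 0 higher. Over all probe sets 10.9%, 12.1% and 10.5% were called lower in these comparisons, and 14.9%, 13.3% and 11.4% higher. The median difference of the list was -1.09, -2.18 and -1.93 in these comparisons, against 0.07, -0.00 and -0.04 over all genes. *Fos* had 548, 1229.5 and 1782 in UGE, 9274, 10310.4 and 11064 in Sca-1Hi, 7828, 5298, 9955 and 10484 in Sca-1Lo, and 7014, 5712, 7034 and 9977 in Sca-1Neg, so that every UGE array was below every adult array. Its difference in UGE was -2.78 ± 0.37 from Sca-1Neg (adjusted p = 1.16e-04) and -3.26 ± 0.40 from Sca-1Hi (adjusted p = 5.67e-05). *Egr1*, *Ier3* and *Junb* were lower in UGE than in Sca-1Neg, with differences of -2.67, -2.55 and -2.40, and lower than in Sca-1Hi, with differences of -3.22, -4.12 and -3.90. *Etv5* was the 1 gene of the list that was higher in UGE than in Sca-1Neg (1.28, adjusted p = 0.0476). *Phlda1*, whose product promotes or limits cell death by context, was higher in Sca-1Hi than in Sca-1Neg by 2.55 (adjusted p = 0.0119). The adult cells were digested from tissue and sorted and the UGE was not sorted, so handling and population cannot be told apart for these rapidly induced genes.

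In the release of ligands from the membrane, 1 of 10 genes was higher and 3 were lower in UGE than in Sca-1Neg. With 14.9% and 10.9% of all probe sets called, counts this small are no result about the list. *Adam10*, the protease known to release EGF and betacellulin, was higher (1.12, adjusted p = 0.0146), and *Adam9* (-1.67), *Adam15* (-1.51) and the inhibitor *Timp3* (-2.78, adjusted p = 0.00362) were lower. *Timp3* ran from 286 to 423 in UGE and from 1004 to 6820.4 in the adult populations, and it is also known as a gene of stromal cells. The 12 genes of fibroblasts and smooth muscle had 6 called lower in the same comparison. *Adam17*, the protease known to release TGF-alpha, was called in no comparison.

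In the signal relay 5 of 20 genes were higher and 1 lower in UGE than in Sca-1Neg. Among all probe sets 14.9% were called higher and 10.9% lower, and counts this small are no result about the list. *Nras*, a RAS protein, was higher by 2.72 (adjusted p = 0.00121), *Sos1*, which loads RAS with GTP, by 1.54, and the kinase *Src* by 1.52. Both *Nras* and *Sos1* also exceeded Sca-1Hi (1.81 and 1.70) and Sca-1Lo (1.98 and 1.34) in UGE. The adaptors parted in the first comparison, with *Gab1* higher (1.30, adjusted p = 0.0262) and *Gab2* lower (-1.52, adjusted p = 0.00970). *Gab2* was also lower in Sca-1Hi than in Sca-1Neg (-1.81, adjusted p = 0.00901), where 12 of 16 leukocyte genes were lower as well.

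Of 20 brakes on the pathway, 2 were higher and 3 lower in UGE than in Sca-1Neg, near the 14.9% and 10.9% of all probe sets, which is no result about the list. The ERK phosphatase gene *Dusp4* was higher (2.03, adjusted p = 0.00528), as was *Socs4* (1.06), and *Lrig1*, whose product lowers the amount of EGFR, was lower (-1.53, adjusted p = 0.0427), with *Socs5* and *Spry4* at -1.05 each. In Sca-1Hi the feedback inhibitor *Spry2* (1.63, adjusted p = 0.0349) and the ubiquitin ligase gene *Cblc* (1.79, adjusted p = 0.0351) were higher than in Sca-1Neg, and *Spry2* was lower in UGE than in Sca-1Hi (-1.67, adjusted p = 0.0228). Of the 5 other ligands, 0 were called in UGE against Sca-1Neg, and only *Nrg1*, a ligand of ERBB3, was called in any of the 6 comparisons (lower in UGE than in Sca-1Lo, adjusted p = 0.0165), with signals of 8.04 to 21.1 over the 14 arrays, near the limit of 20.

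**Figure D5:**
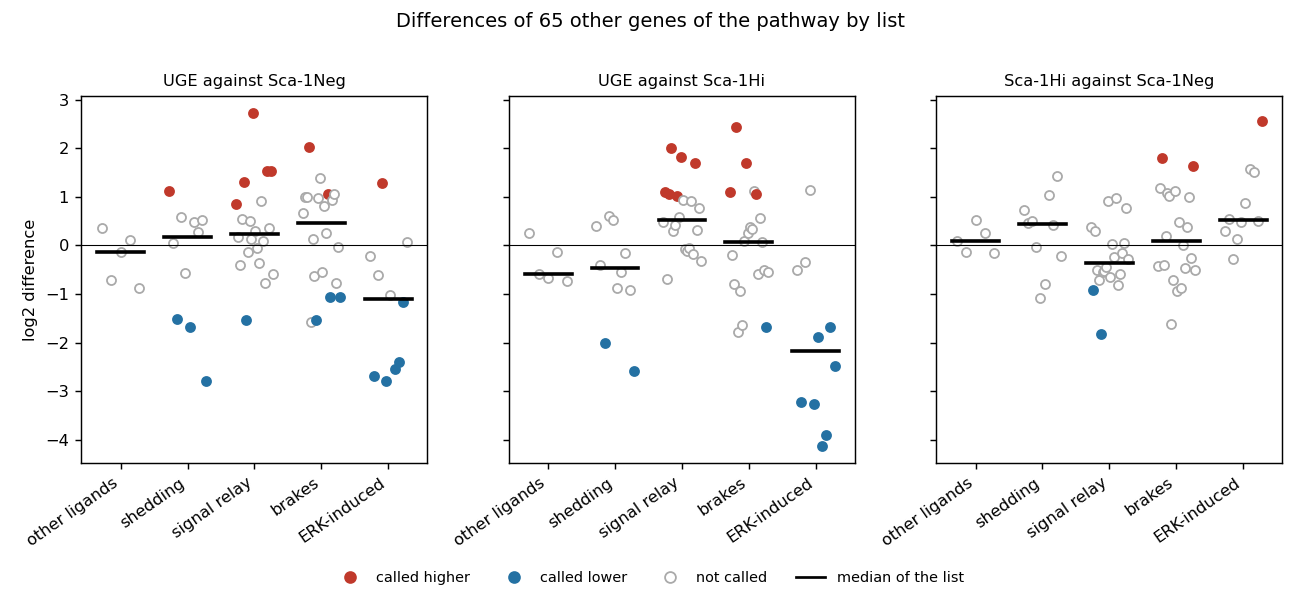
Log2 difference of 65 other genes of the pathway in UGE against Sca-1Neg, UGE against Sca-1Hi and Sca-1Hi against Sca-1Neg, by list; points are genes, filled where called, and the bar is the median of the list. ERK-induced genes lay lowest in both comparisons of UGE, with medians of -1.09 and -2.18.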

How the data were processed

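The authors amplified labelled RNA of 14 samples and hybridized each to an Affymetrix MOE430 2.0 array. The deposited values are intensity values on a linear scale, PLIER signals that the authors computed in ArrayAssist; MAS5 gave detection calls, which were not used. The step that normalizes between arrays is not given in the sources used here. Signals of different probe sets have no common scale, and PLIER, fitted over all arrays, can give low signals a wide spread on the log2 scale.

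Signals were taken to log2 with no constant. The 64 array controls were left out, and 41031 of 45101 probe sets passed the filter of 20 on at least 1 array. Genes were named by the platform table, and *Ly6a* through a supplementary table of the study. All 4 group means were fitted at once in limma 3.58.1 (R 4.3.3, lmFit and eBayes). Every adjusted p is limma's, over all probe sets tested. The median signal over all probe sets ran from 64.3 to 81.0 on the arrays. Precision is limited by 3 or 4 arrays a population. The method was tested on simulated data.

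The members and lists were chosen with earlier results of these data known. Members were named by list, other genes by the lists with up to 4 called genes each, and the 3 genes most like a called member by correlation. *Etv5*, *Spry4* and *Adam17* were named after their values were seen. Where a population lay below 20 in mean, a change is a bound against 20. Alternatives were no filter, a filter on 3 arrays, a constant of 16, quantile normalization, the 75th percentile as the centre, the unpaired test named in the methods, only the 2 groups compared, the replicate number as a block, no fold minimum, treat, array weights, robust estimates with a trend, leaving out each array, the mean of a gene's probe sets, and the study's array numbers as a block or 1 set at a time. These numbers were joined to the arrays by matching the values of a supplementary table to within 1.2e-05. The labels' replicate numbers were not taken as a pairing. Same-numbered arrays of different populations, UGE included, had deviations that correlated at -0.45 to 0.56. Among adult arrays the median was 0.23 for the same replicate number and -0.15 for others. A pairing of adult arrays by the study's single array numbers was not fitted. Promoters are from RefSeq. Python 3.11.15, pandas 2.3.3 and matplotlib 3.10.9 served for tables and figures.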

Additional observations from a re-analysis of the deposited data

Results flagged for a closer look

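Sca-1Neg replicate 3 lay apart from the other 3 Sca-1Neg arrays for 3 members: it was the highest for *Erbb3* (913 against 549 to 566, with a gap of 0.9406 of the range of the group on the log2 scale), the highest for *Egf* (3452 against 511 to 616, 0.9025) and the lowest for *Btc* (7.33 against 22.3 to 27.7, 0.8359). Each gap exceeds the 95% critical value of Dixon's test for 4 samples, which chance exceeds in about 1 of 20 groups, and 16 groups were examined. The same array had the highest epithelial, luminal secretory and basal sums of its group (32511, 80462 and 8611) and the lowest leukocyte and endothelial sums (7827 and 1463). Without it the differences of UGE from Sca-1Neg were 1.87 for *Erbb3*, -4.17 for *Egf* and 1.09 for *Btc*, each still called.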

How the results depend on the processing

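All 13 differences between populations that were called kept their sign under the 30 alternatives run, and 3 (*Egf* in UGE against Sca-1Neg and Sca-1Lo, *Hbegf* against Sca-1Hi) stayed called under each. The cause of the changes below was not tested. In UGE against Sca-1Neg, where 6 members were called, the methods' t-test called 3 (2 higher and 1 lower) and treat 1 (lower). The mean of probe sets called 3 (1 higher and 2 lower), and 5 to 6 were called with 1 array left out. The array numbers as a block or the arrays numbered 1 and 2 called 7. Array weights called 8, which added *Egfr* (adjusted p = 0.00366) and *Ereg* (0.0171). Of all 41031 probe sets they called 10512 higher and 8365 lower, against 6124 and 4471 in the reported fit. In UGE against Sca-1Lo treat called 2 of the 4, quantile normalization, only the 2 groups compared and array weights 5, the arrays numbered 1 and 2 called 6, and 3 to 5 were called with 1 array left out. In UGE against Sca-1Hi 2 to 3 were, and array weights called 4. Where Sca-1Hi against Sca-1Neg held 0 calls, a filter on 3 arrays, quantile normalization, centring on the 75th percentile, only the 2 groups compared and the mean of probe sets each gave 1, the array numbers as a block 2, array weights 3 and arrays left out 0 to 2. In Sca-1Lo against Sca-1Neg array weights gave 5 and arrays left out 0 to 1. Over all probe sets array weights called 7039 higher and 3414 lower in Sca-1Lo, against 509 and 272 in the reported fit. In Sca-1Hi against Sca-1Neg they called 8628 and 4311, against 3138 and 1755. The added calls of members under array weights are thus no result about the members. Sca-1Hi against Sca-1Lo held 0 under each. Among the differences printed above that were not called, the sign turned in UGE against Sca-1Neg for *Egfr* (-0.29, mean of probe sets) and *Ereg* (-0.19 without UGE replicate 2, against 3.60 without UGE replicate 1) and in UGE against Sca-1Lo for *Tgfa* (-0.039, mean of probe sets, and -0.15, arrays numbered 3 to 5). Between adult populations it turned with the arrays numbered 1 and 2 for *Erbb3* in Sca-1Hi (0.16) and Sca-1Lo (0.19) against Sca-1Neg and for *Egf* (1.49) and *Hbegf* (-0.11) in Sca-1Lo against Sca-1Neg, and with those numbered 3 to 5 for *Erbb2* in Sca-1Lo against Sca-1Neg (-0.28) and *Hbegf* in Sca-1Hi against Sca-1Lo (-0.067). The difference of *Egf* in Sca-1Lo against Sca-1Neg ran from -0.58 to 0.46 with 1 array left out, and turned without Sca-1Lo replicate 3 (0.094), Sca-1Lo replicate 4 (0.23) or Sca-1Neg replicate 3 (0.46). The adjusted p given for single alternatives had these ranges over all 30, treat included: in UGE against Sca-1Neg 1.05e-05 to 0.680 for *Erbb3*, 2.59e-05 to 0.262 for *Tgfa*, 5.84e-04 to 0.293 for *Btc*, 0.00366 to 1 for *Egfr* and 0.00117 to 1 for *Ereg*, in UGE against Sca-1Hi 8.89e-05 to 0.0676 for *Egf*, in UGE against Sca-1Lo 2.45e-05 to 0.141 for *Hbegf*, 0.00309 to 1 for *Btc* and 0.0370 to 1 for *Tgfa*, in Sca-1Hi against Sca-1Neg 0.00892 to 1 for *Erbb2*, 0.00162 to 1 for *Tgfa* and 0.0260 to 1 for *Ereg*, and in Sca-1Lo against Sca-1Neg 3.67e-04 to 1 for *Tgfa*. With the replicate block, UGE against Sca-1Neg held 6 calls, with *Egfr* (1.19, adjusted p = 0.0257) in place of *Hbegf* (-1.39). The calls in the other comparisons did not change. Same-numbered arrays, UGE included, correlated at a median of 0.13, and the number was not taken as a pairing. With the 75th percentile as the centre, the median over all probe sets in UGE went from 0.08 to -0.12 against Sca-1Neg, from -0.09 to -0.23 against Sca-1Hi and from -0.04 to -0.22 against Sca-1Lo, which turned the counts called higher and lower in the first from 6124 and 4471 to 5079 and 5639, while the members called stayed 4 and 2. Signals near 20 limit what can be said of *Btc*, *Erbb4* and *Nrg1*.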
